A study of Mus musculus with 4 samples.

Results

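Chromatin accessibility was examined at the genes of 9 transcription factors that specify macrophages or their precursors, namely Spi1 (PU.1), Cebpa, Cebpb, Cebpd, Runx1, Maf, Fli1, Tal1 and Lmo2. An accessible region was a set of ATAC-seq peaks, from any of the 4 libraries, that overlapped by at least 1 bp, and it belonged to a gene when the annotation of its highest peak named that gene. By this rule 149 of 60710 regions belonged to the 9 factors. The peak lists carry Spi1 under its older symbol Sfpi1, so it was matched by Entrez gene identifier. The listed spellings alone gave 144 regions of 8 genes.

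ATAC-seq marks open DNA by the places where the Tn5 transposase can insert sequencing adapters. The cells were BMDMs (bone marrow-derived macrophages) of wild-type C57BL/6 mice aged 8 to 12 weeks, grown from marrow over 6 days in L929 supernatant, which supplies macrophage colony-stimulating factor. The control group (2 libraries) was left untreated, and the IL-4 group (2 libraries) received 20 ng/ml of IL-4 for 1 h. IL-4 signals through the transcription factor STAT6. The study describes the libraries as biological replicates, and the p-values here rest on 2 libraries a group. Where a library was left out, 1 group held 1 library, which has no spread of its own. The p-values and SEs of the limma test also borrow spread from all regions with a peak in all 4 libraries. They do not measure the spread of a single region alone. In a bulk library, a lower peak in every cell and a peak in fewer cells cannot be told apart.

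PU.1 is an ETS-family factor that opens macrophage enhancers, and it does so together with C/EBP and RUNX proteins. C/EBPα drives commitment to the granulocyte and monocyte lineages, whereas C/EBPβ and C/EBPδ act in mature and activated myeloid cells. RUNX1 acts early, in the emergence of haematopoietic stem cells and in the priming of myeloid genes. c-MAF is a bZIP factor of differentiated macrophages and T helper cells. FLI1, an ETS factor, TAL1, a basic helix-loop-helix factor, and LMO2, its bridging partner, belong to the stem cell and megakaryocyte-erythroid programme.

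Peak height below is the deposited peak score, read as −log10 of the MACS2 q-value. It states how strongly a peak stands above the background of its own library and it grows with sequencing depth, which is unknown because the files hold no reads. The libraries held 39462 to 45250 peaks with median heights of 6.41 to 8.04, both lowest in IL-4 replicate 2. The macrophage markers Adgre1, Cd68, Mertk and Fcgr1 had a promoter peak in all 4 libraries. Csf1r, Itgam and Mpeg1 had none at the promoter, although 10, 8 and 11 regions elsewhere were named for them. The promoter of Cd2, a T cell marker, had a peak in 1 library and that of Ebf1, a B cell marker, in 3. None of the 4 neutrophil, 4 erythroid and megakaryocyte or 3 stromal marker genes had a promoter peak.

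The sequences on which the comparison of IL-4 with control turned are given from the GRCm38.p6 assembly (mm10 coordinates, plus strand, 5′ to 3′). They are the 6 regions found in both libraries of 1 group and in neither of the other, the region with the lowest p in each direction, and the tallest Runx1 region. Capitals mark matches, on either strand, to STAT6 (TTCNNNNGAA), PU.1 (GAGGAAGT), C/EBP (TTGCNNAA), RUNX (TGTGGTT) or AP-1 (TGANTCA) motifs. Regions longer than 300 bp are shown as a window of 300 bases. The window was placed on the STAT6 match where the region held one, and otherwise on the highest peak. None of these windows overlapped a RefSeq exon.
Spi1 −12.4 kb, intergenic, both control libraries (chr2:91084345-91084513): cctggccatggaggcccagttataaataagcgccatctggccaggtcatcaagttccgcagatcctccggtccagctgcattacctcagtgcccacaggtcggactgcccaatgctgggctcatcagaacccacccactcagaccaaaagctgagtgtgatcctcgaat
Runx1 −29.8 kb, intron 2, both control libraries (chr16:92726995-92727264): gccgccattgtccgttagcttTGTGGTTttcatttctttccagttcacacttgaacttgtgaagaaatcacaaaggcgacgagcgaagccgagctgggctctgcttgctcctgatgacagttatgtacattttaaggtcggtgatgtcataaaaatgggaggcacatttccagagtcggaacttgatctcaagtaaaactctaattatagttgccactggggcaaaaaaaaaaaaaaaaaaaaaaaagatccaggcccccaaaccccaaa
Runx1 +81.8 kb, intron 5, both control libraries (chr16:92615312-92615611): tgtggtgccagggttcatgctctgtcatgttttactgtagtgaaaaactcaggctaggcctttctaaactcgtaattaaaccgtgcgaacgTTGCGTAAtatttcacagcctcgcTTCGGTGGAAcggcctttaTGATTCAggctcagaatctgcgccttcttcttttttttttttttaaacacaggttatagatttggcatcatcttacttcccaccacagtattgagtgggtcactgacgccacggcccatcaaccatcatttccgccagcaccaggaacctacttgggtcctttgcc
Cebpa −701 bp, promoter, both IL-4 libraries (chr7:35118533-35118648): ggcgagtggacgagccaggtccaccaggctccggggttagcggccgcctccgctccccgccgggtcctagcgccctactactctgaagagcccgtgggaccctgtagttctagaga
Maf −1.28 kb, upstream, both IL-4 libraries (chr8:115708083-115708229): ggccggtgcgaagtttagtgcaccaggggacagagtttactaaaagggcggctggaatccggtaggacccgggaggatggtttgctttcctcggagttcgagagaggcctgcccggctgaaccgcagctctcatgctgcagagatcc
Maf +551 kb, in an intron of a neighbouring gene, both IL-4 libraries (chr8:115156261-115156429): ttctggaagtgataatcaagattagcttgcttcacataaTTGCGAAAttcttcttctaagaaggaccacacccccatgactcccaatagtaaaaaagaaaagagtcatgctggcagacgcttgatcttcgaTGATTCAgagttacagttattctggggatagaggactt
Runx1 +38.9 kb, intron 2, lowest p among regions higher in IL-4 (chr16:92787029-92787328): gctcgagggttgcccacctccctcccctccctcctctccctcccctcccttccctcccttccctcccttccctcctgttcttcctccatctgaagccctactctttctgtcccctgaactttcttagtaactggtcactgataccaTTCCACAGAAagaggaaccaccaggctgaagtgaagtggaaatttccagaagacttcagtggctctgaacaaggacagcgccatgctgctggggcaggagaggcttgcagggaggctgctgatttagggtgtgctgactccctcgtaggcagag
Fli1 +1.10 kb, intron 1, lowest p among regions lower in IL-4 (chr9:32540118-32540417): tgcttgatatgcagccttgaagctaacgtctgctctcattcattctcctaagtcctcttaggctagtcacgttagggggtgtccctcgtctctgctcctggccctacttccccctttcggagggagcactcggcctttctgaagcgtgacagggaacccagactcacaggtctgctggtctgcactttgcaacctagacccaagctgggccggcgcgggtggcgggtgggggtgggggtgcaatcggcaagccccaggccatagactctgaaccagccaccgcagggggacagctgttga
Runx1 +76.4 kb, intron 5, tallest Runx1 region (chr16:92620756-92621055): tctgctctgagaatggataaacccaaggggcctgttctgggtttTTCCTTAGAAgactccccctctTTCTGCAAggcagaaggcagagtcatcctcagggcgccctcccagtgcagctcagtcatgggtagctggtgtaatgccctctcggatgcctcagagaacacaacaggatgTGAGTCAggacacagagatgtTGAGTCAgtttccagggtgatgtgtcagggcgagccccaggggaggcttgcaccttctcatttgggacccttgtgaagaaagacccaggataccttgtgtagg
A STAT6 match stood in 3 of these windows, all at Runx1, namely TTCCACAGAA in the +38.9 kb window, TTCGGTGGAA in the +81.8 kb window and TTCCTTAGAA in the +76.4 kb window. The Fli1 +1.10 kb window and the promoter-proximal windows of Cebpa and Maf held none of the 5 motifs. The windows were picked, and of the tallest non-promoter regions only that of Runx1 is shown, so their STAT6 count has no background. Over the 149 regions the share with a STAT6 match was 6.04%, against 7.22% of all regions. A match is a description of the letters and not evidence of binding.

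The 9 genes differed widely in how many regions they held. Maf held 51 regions, the second largest number among 16244 genes with a region, and Runx1 held 33 (rank 16). Fli1 had 22, Lmo2 14, Tal1 8, Cebpa and Cebpd 7 each, Spi1 5 and Cebpb 2, whereas the median gene held 2. The rule counts nearest start sites, so it depends on how crowded the locus is. Within 100 kb of Maf no region was named for another gene, against 16 around Spi1, 19 around Cebpb, 15 around Tal1 and 11 around Cebpa.

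**Figure D1:**
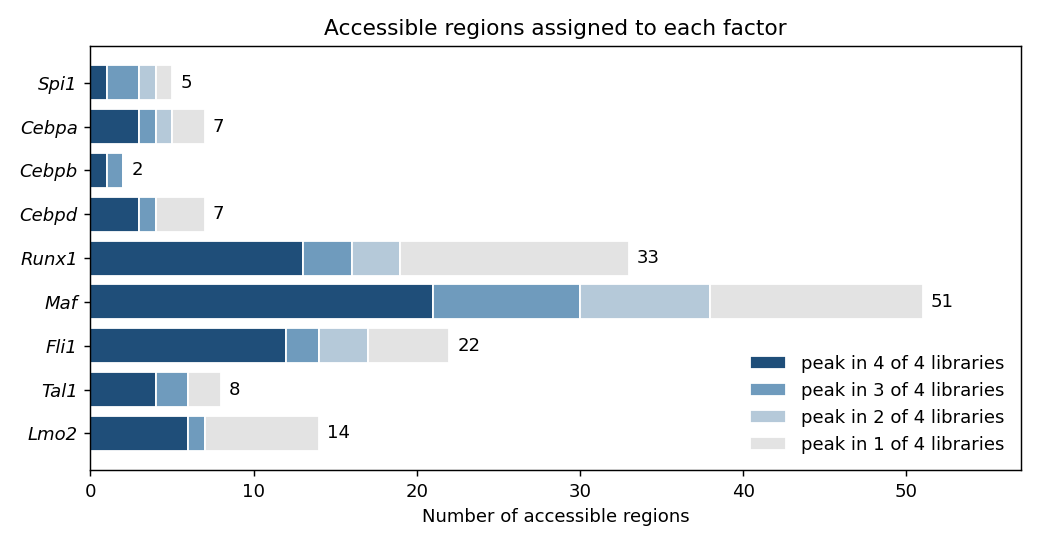
Number of accessible regions assigned to each of the 9 genes (x axis), with the bar divided by the number of libraries in which the region had a peak. Maf (51), Runx1 (33) and Fli1 (22) held most of the 149 regions, and Cebpb held 2.

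All 4 libraries shared 64 of the 149 regions (43.0%), while 22 regions were seen in 3 libraries, 16 in 2 and 47 (31.5%) in 1. The shares over all regions were 41.9% and 29.6%. The genomic position differed from that of the average region. Promoters made up 7.38% of the regions of the 9 factors against 18.8% of all regions, and intergenic DNA 57.7% against 35.8%. In all, 70 regions lay beyond 50 kb from the nearest start site, 45 of them at Maf and 12 at Runx1. Those differences were not tested, since neighbouring regions share a locus. Shared regions beyond 50 kb had a median length of 317 bp and a median mean height of 9.51, and those within 50 kb 312 bp and 10.9.

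**Figure D2:**
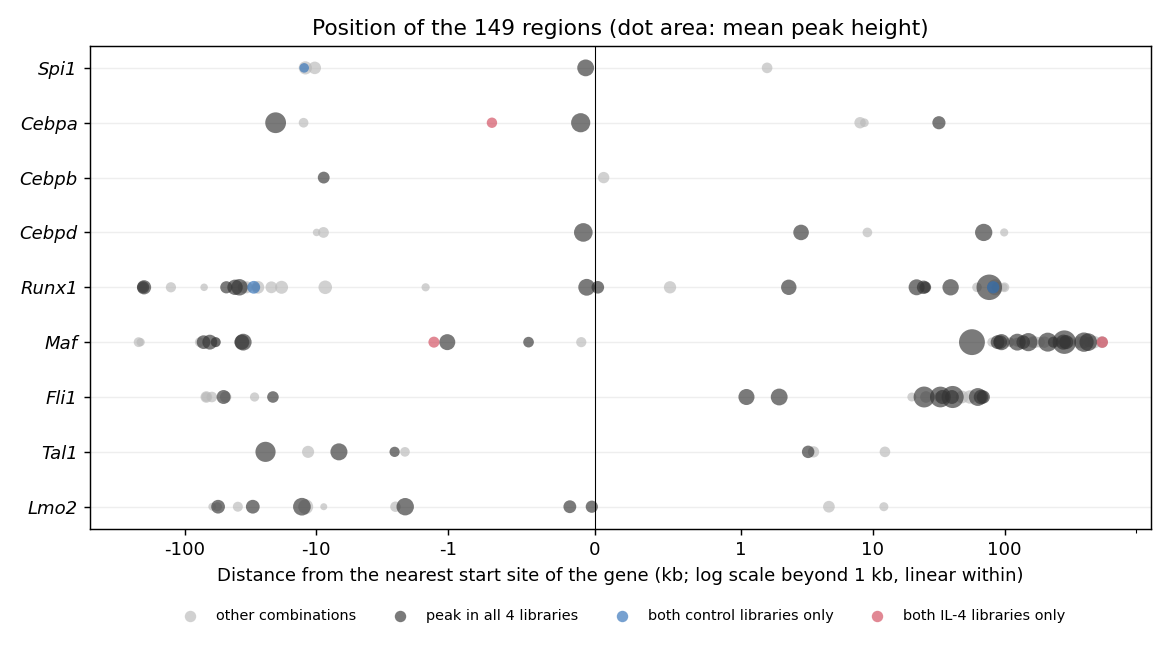
Distance of each region from the nearest start site of its gene in kb (x axis, linear within 1 kb and logarithmic beyond) for the 9 genes (rows), with dot area proportional to the mean peak height and colour giving the libraries that held the peak. The largest dots were Maf +56.5 kb (mean height 29.3) and Runx1 +76.4 kb (28.5), while Fli1 and Tal1 had no dot at the start site itself.

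The promoters were compared next, each by its tallest promoter region over the 4 libraries. On the height scale the order was Cebpa (16.1 ± 2.23, SD, n = 4), Cebpd (15.2 ± 2.59, n = 4), Spi1 (12.4 ± 3.35, n = 4), Runx1 (12.4 ± 3.96, n = 4), Lmo2 (7.23 ± 3.20, n = 4), Cebpb (5.67 ± 2.21, n = 3) and Maf (4.97 ± 0.928, n = 4). The step from Runx1 to Lmo2 was larger than both SDs, and no other pair of neighbours in the order differed by more than both of their SDs. These regions differed in length, from 222 bp at Lmo2 to 549 bp at Cebpa. Per 100 bp of region, the mean height was 4.83 at Spi1, 4.18 at Runx1, 3.44 at Cebpd, 3.26 at Lmo2, 2.94 at Cebpa, 2.13 at Cebpb and 1.18 at Maf. Cebpa, at the top of the order on the height scale, was thus the fifth per length, and Maf stayed last on both. Fli1 and Tal1 had no region annotated as promoter, and their regions nearest the start site lay at +1.10 kb and −2.13 kb.

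**Figure D3:**
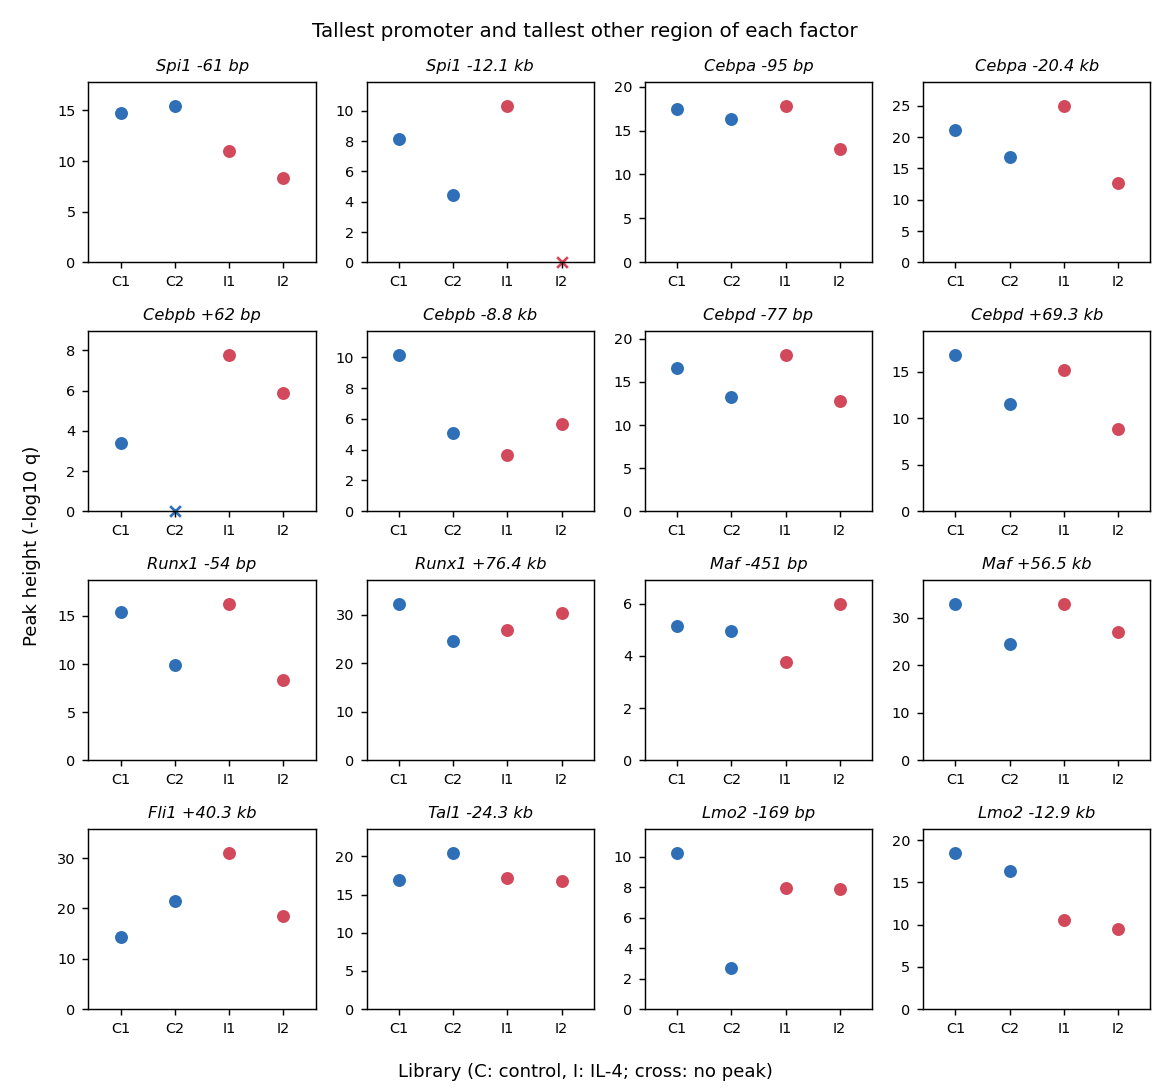
Peak height (−log10 q, y axis, a separate scale per panel) in the 2 control (C1, C2) and 2 IL-4 (I1, I2) libraries for the tallest promoter region and the tallest other region of each gene, with a cross where a library had no peak. The Spi1 promoter and Lmo2 −12.9 kb were lower in both IL-4 libraries than in both control libraries, and Cebpb +62 bp had no peak in control replicate 2.

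Spi1 encodes PU.1, and its promoter (−61 bp, chr2:91096608-91096863) was the only one of its 5 regions with a peak in all 4 libraries. Its height was 14.75 and 15.45 in control and 11.02 and 8.29 in IL-4. The groups did not overlap in height, and the log2 height change after quantile normalisation was −0.42 ± 0.40 (SE; limma adjusted p = 0.841). Over the Spi1 regions shared by the remaining libraries, the mean was −0.56 without control replicate 1 and −0.27 without control replicate 2. It was −0.46 without IL-4 replicate 1 and 0.24 without IL-4 replicate 2. The remaining Spi1 regions were smaller. The −12.1 kb region had heights of 8.18 and 4.48 in control and 10.34 in IL-4 replicate 1, with no peak in IL-4 replicate 2. The −10.3 kb region lacked a peak in control replicate 2 and the intronic +1.58 kb region had a peak in IL-4 replicate 2 alone. The −12.4 kb region was found in both control libraries (4.27 and 3.78) and in neither IL-4 library, and it lay 87 bases from the −12.1 kb region.

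A distal region of Spi1 fell outside the rule. The files name the region at chr2:91082893-91083182 for Slc39a13, although it lies −13.8 kb from the Spi1 start site that the files use, in the stretch known to hold an upstream regulatory element of Spi1, and RefSeq holds a Spi1 transcript that starts upstream of it. Its heights were 15.66 and 12.31 in control and 10.59 and 7.89 in IL-4. Both IL-4 values were below both control values, as at the Spi1 promoter, with a log2 change of −0.36 ± 0.41 (SE; limma adjusted p = 0.878). Without normalisation, 29.3% of all shared regions had both IL-4 heights below both control heights. This region and those named for Slc7a10 and Pdzk1ip1 were chosen after their values were seen.

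The C/EBP genes held 16 regions in all, 7 of them shared by all libraries, and none of these 7 passed the test. The Cebpa promoter (−95 bp, chr7:35118890-35119438) had heights of 17.48 and 16.35 in control and 17.81 and 12.93 in IL-4. The groups overlapped. Cebpa −20.4 kb was the tallest C/EBP region, at 21.13 and 16.76 in control and 25.01 and 12.70 in IL-4, so that the IL-4 libraries lay on either side of the control pair. A small region at −701 bp of Cebpa was present in both IL-4 libraries (4.02 and 5.46) and in neither control library, 241 bases from the promoter region that all libraries shared.

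The enhancer of Cebpa known to act in myeloid progenitors lies downstream of the gene, and the region at +37.3 kb (chr7:35156508-35156739) is named for Slc7a10 in the files. It had heights of 10.75 and 8.63 in control, no peak in IL-4 replicate 1 and 2.49 in IL-4 replicate 2. Both control values thus exceeded the IL-4 value, but the region had no peak in 1 library and was not tested.

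Cebpb had the fewest regions. Its promoter (+62 bp, chr2:167688782-167689047) had a height of 3.38 in control replicate 1, no peak in control replicate 2, and heights of 7.78 and 5.86 in the IL-4 libraries. Both IL-4 values lay above the control value, and no test was made because a library lacked the peak. The −8.79 kb region of Cebpb had heights of 10.16 and 5.08 in control and 3.68 and 5.65 in IL-4, and the groups overlapped. Cebpd, by contrast, had a promoter peak (−77 bp, chr16:15887028-15887469) in every library, with heights of 16.57 and 13.30 in control and 18.16 and 12.78 in IL-4. The deposited heights of the groups overlapped there. After normalisation both IL-4 heights lay above both control heights (log2 change 0.25 ± 0.35, SE; limma adjusted p = 0.908). At the 3′ end of Cebpd (+2.85 kb) the IL-4 heights of 12.12 and 11.70 lay above the control heights of 9.84 and 8.64, with a log2 change of 0.60 ± 0.43 (SE; limma adjusted p = 0.766). The mean log2 change over the shared regions was −0.12 for Cebpa (3 regions), −0.44 for Cebpb (1 region) and 0.27 for Cebpd (3 regions). Over the regions shared by the remaining libraries, the Cebpb mean was 0.24 without control replicate 2, −0.08 without control replicate 1, 0.07 without IL-4 replicate 1 and −0.90 without IL-4 replicate 2. That of Cebpa ranged from −0.36 without IL-4 replicate 1 to 0.08 without IL-4 replicate 2, and that of Cebpd was 0.04 without normalisation.

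Runx1 is transcribed from a distal and a proximal promoter, and both were accessible in all 4 libraries. Distances are to the nearest start site, so the +38.9 kb region is placed from the distal promoter and the −29.8, +21.5, +76.4 and +81.8 kb regions from the proximal. The proximal promoter (−54 bp, chr16:92697256-92697553) had heights of 15.36 and 9.85 in control and 16.27 and 8.29 in IL-4. The distal promoter (+22 bp, chr16:92825889-92826215) had heights of 13.05 and 4.60 in control and 6.30 and 3.93 in IL-4. The groups overlapped at both. The tallest Runx1 region was in intron 5 at +76.4 kb (chr16:92620756-92621542), with heights of 32.31 and 24.65 in control and 26.84 and 30.35 in IL-4, and 3.92% of all shared regions had a greater mean height. It did not separate the groups.

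The intron 2 region at +38.9 kb of the distal Runx1 promoter (chr16:92786988-92787406) was the region of the 9 factors with the lowest p. Its heights were 7.96 and 8.63 in control and 16.53 and 13.61 in IL-4. Both IL-4 values lay well above both control values, with a log2 change of 1.10 ± 0.42 (SE; limma adjusted p = 0.432). The region holds a STAT6 match at chr16:92787175-92787184. It did not pass the adjusted threshold in any fit of all 4 libraries (limma adjusted p from 0.382 with the replicate block to 0.632 without normalisation). When a library was left out, the log2 change was 0.94 to 1.24.

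A pair of Runx1 regions was found in the control libraries and in neither IL-4 library. The −29.8 kb region had heights of 8.39 and 5.90 and held a RUNX match, and the +81.8 kb region had heights of 5.46 and 7.80 and held STAT6, C/EBP and AP-1 matches. They lay 3753 and 2565 bases from the nearest other region. The intron 4 region at +21.5 kb (chr16:92675532-92675970) had heights of 20.77 and 8.99 in control and 6.14 and 9.04 in IL-4. Control replicate 1 stood above the other 3 libraries there, and the log2 change was −0.66 ± 0.46 (SE; limma adjusted p = 0.759). It was −0.14 without control replicate 1, −0.20 without IL-4 replicate 1, −1.18 without control replicate 2 and −1.09 without IL-4 replicate 2. Of the 33 Runx1 regions, 14 had a peak in a single library. The mean log2 change of the 13 shared Runx1 regions was 0.08, and −0.15 without normalisation.

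**Figure D4:**
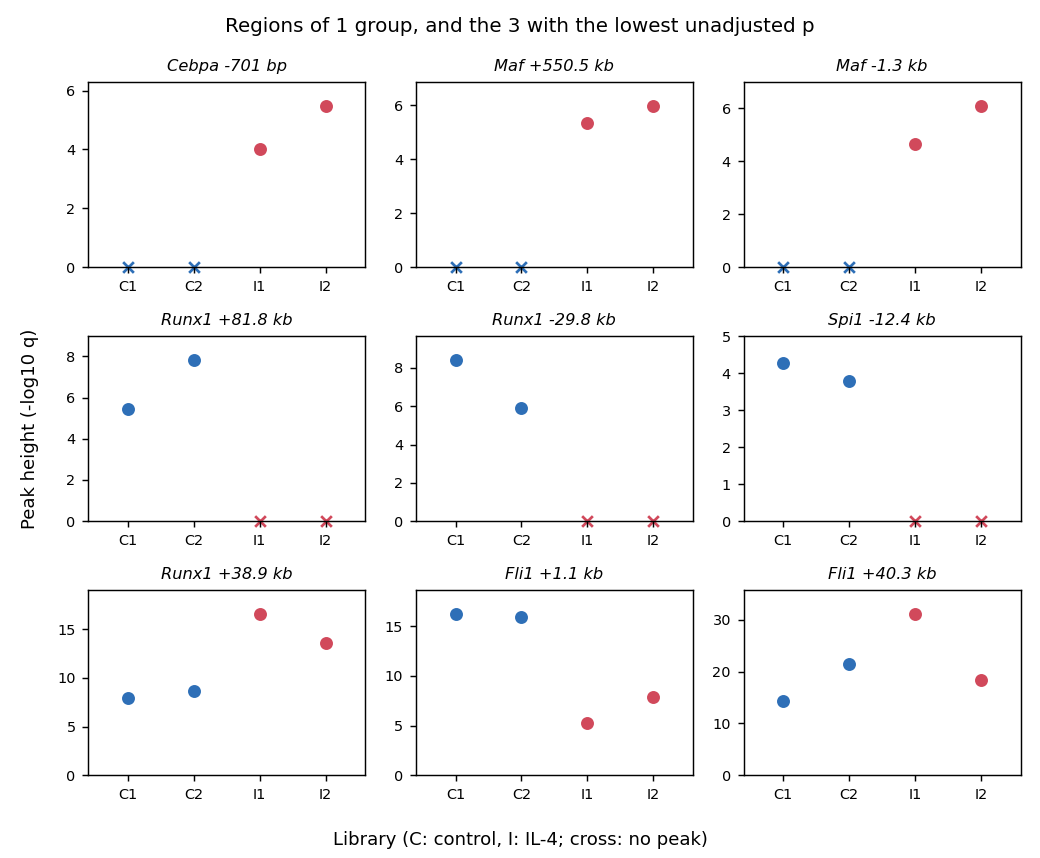
Peak height (−log10 q, y axis, a separate scale per panel) in the 2 control (C1, C2) and 2 IL-4 (I1, I2) libraries for the 6 regions found in both libraries of 1 group and in neither of the other, and for the 3 regions with the lowest unadjusted p, with a cross where a library had no peak. The 1-group regions did not exceed a height of 8.39, whereas Runx1 +38.9 kb and Fli1 +1.10 kb had peaks in every library with no overlap between the groups.

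Maf combined a weak promoter with many distal regions. The tallest promoter region (−451 bp, chr8:115707146-115707567) had heights of 5.16 and 4.96 in control and 3.75 and 6.00 in IL-4, and the groups overlapped. The upstream region at −1015 bp was taller, with heights of 11.39 in both control libraries and 9.11 and 13.10 in IL-4. Next to it, 19 bases away, the −1.28 kb region had a peak in both IL-4 libraries (4.63 and 6.06) and in neither control library. The region of the 9 genes farthest from a start site, at +551 kb in an intron of a neighbouring gene, was also found in both IL-4 libraries (5.34 and 5.95) and in neither control library.

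The tallest region of the 9 factors was Maf +56.5 kb (chr8:115650105-115650690), with heights of 32.84 and 24.43 in control and 32.95 and 26.96 in IL-4. The deposited heights overlapped, whereas after normalisation both IL-4 heights lay above both control heights (log2 change 0.19 ± 0.23, SE; limma adjusted p = 0.882), and 3.44% of all shared regions had a greater mean height. Maf +284 kb followed within the gene, with heights of 28.15 and 19.00 in control and 21.62 and 28.13 in IL-4. Single Maf regions differed in opposite directions. At +212 kb the heights were 18.87 and 20.80 in control and 15.33 and 8.21 in IL-4 (log2 change −0.60 ± 0.35, SE; limma adjusted p = 0.681). At +399 kb they were 15.53 and 14.36 in control and 19.59 and 16.23 in IL-4 (log2 change 0.46 ± 0.33, SE; limma adjusted p = 0.762). The groups did not overlap at either. At −36.7 kb the heights were 12.08 and 4.02 in control and 13.55 and 9.44 in IL-4 (log2 change 0.91 ± 0.49, SE; limma adjusted p = 0.632), and the deposited heights overlapped. The change at −36.7 kb was 0.24 without control replicate 2, 1.58 without control replicate 1 and 0.00 with peaks within 500 bp merged, and that at +212 kb was −0.31 without IL-4 replicate 2. The mean log2 change over the 21 shared Maf regions was −0.01.

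Fli1 was accessible mainly along intron 1. The intron held a cluster of tall regions at +24.5, +32.5 and +40.3 kb with mean heights of 19.2, 18.9 and 21.4. The +40.3 kb region (chr9:32500923-32501266) had heights of 14.42 and 21.50 in control and 31.09 and 18.41 in IL-4. The deposited heights overlapped, since IL-4 replicate 2 was below control replicate 2, and the groups separated only after normalisation, with a log2 change of 0.63 ± 0.30 (SE; limma adjusted p = 0.569). It was 0.26 without control replicate 1, 1.03 without control replicate 2 and 0.41 without IL-4 replicate 1. The opposite direction was seen close to the start site. At +1.10 kb (chr9:32540106-32540417) the heights were 16.20 and 15.96 in control and 5.22 and 7.86 in IL-4. Both IL-4 libraries were far below the closely matched control pair, with a log2 change of −1.12 ± 0.45 (SE; limma adjusted p = 0.478, and 0.374 to 0.576 over the fits of all 4 libraries). The change was −0.63 without IL-4 replicate 1.

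The neighbouring Fli1 region at +1.95 kb had heights of 17.41 and 12.99 in control and 12.26 and 6.88 in IL-4, with a log2 change of −0.47 ± 0.40 (SE; limma adjusted p = 0.813). Of the 12 shared Fli1 regions, 4 were lower and 1 was higher in both IL-4 libraries than in both control libraries after normalisation, beside 18.6% lower and 19.2% higher of all shared regions. The mean log2 change of the 12 was −0.20, and it was −0.42 without normalisation and 0.14 with peaks above the pooled median height.

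Tal1 and Lmo2, whose products act in 1 complex, were accessible mostly upstream. Tal1 −24.3 kb, in an intron of a neighbouring gene (chr4:115035139-115035386), was its tallest region, with heights of 16.86 and 20.48 in control and 17.13 and 16.78 in IL-4. Tal1 −6.74 kb had heights of 13.15 and 16.49 in control and 12.71 and 8.52 in IL-4, with both IL-4 values lowest on the deposited scale. The groups overlapped there after normalisation (log2 change −0.27 ± 0.39, SE; limma adjusted p = 0.915). Downstream of Tal1, at +15.4 kb, a region that the files name for Pdzk1ip1 (chr4:115074790-115075094) had heights of 15.83 and 12.91 in control and 6.25 and 5.94 in IL-4. The groups did not overlap there, with a log2 change of −1.00 ± 0.46 (SE; limma adjusted p = 0.562). Another region named for Pdzk1ip1, at +16.2 kb (chr4:115075604-115075781), had heights of 7.69 and 1.75 in control and 6.35 in IL-4 replicate 1. It had no peak in IL-4 replicate 2 and was not tested.

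The Lmo2 promoter region at −169 bp (chr2:103970026-103970247) had heights of 10.28 and 2.72 in control and 7.99 and 7.92 in IL-4. The control pair spanned both IL-4 values. The log2 change was 0.80 ± 0.55 (SE; limma adjusted p = 0.742), and it became −0.03 without control replicate 2. Upstream, Lmo2 −12.9 kb (chr2:103945035-103945279) had heights of 18.53 and 16.36 in control and 10.51 and 9.45 in IL-4, and the groups did not overlap (log2 change −0.58 ± 0.38, SE; limma adjusted p = 0.719). Lmo2 −30.3 kb had heights of 12.70 and 8.78 in control and 9.33 and 2.49 in IL-4 (log2 change −0.89 ± 0.53, SE; limma adjusted p = 0.687), and there the groups overlapped. That change was −0.10 without IL-4 replicate 2 and −1.64 without IL-4 replicate 1. The mean log2 change was −0.15 over the 4 shared Tal1 regions and −0.09 over the 6 shared Lmo2 regions.

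Across the 9 genes, no region passed the limma test of height after adjustment over all 25442 shared regions (0 of 64), beside 0.0236% of all shared regions. At an unadjusted p under 0.05, 2 of the 64 were higher (3.12%) and 1 was lower (1.56%) in IL-4, against 4.12% and 4.15% of all shared regions. The median log2 change was −0.03 over the 64 and −0.00 over all shared regions, with quartiles of −0.39 and 0.16 against −0.31 and 0.31. After normalisation, both IL-4 heights lay above both control heights in 9 of the 64 (14.1%) and below in 9 (14.1%), beside 19.2% and 18.6% of all shared regions. Without normalisation, which moved the median of all shared regions to −0.21, the split was 3 higher (4.69%) and 17 lower (26.6%), beside 8.83% and 29.3% of all shared regions. The regions found in 1 group numbered 3 in IL-4 (2.01%) and 3 in control (2.01%), beside 2.53% and 4.33% of all regions. Each of these shares of the 9 genes was below that of all regions. This did not hold with peaks above the pooled median height. There 6 of 28 shared regions were higher and 6 lower (21.4% each), beside 18.8% and 18.4%. The lower share was also above that of all regions without control replicate 2 (34.8% beside 33.7%) and without IL-4 replicate 1 (36.2% beside 34.6%). So was the control-only share without control replicate 1 (13.8% beside 12.4%).

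**Figure D5:**
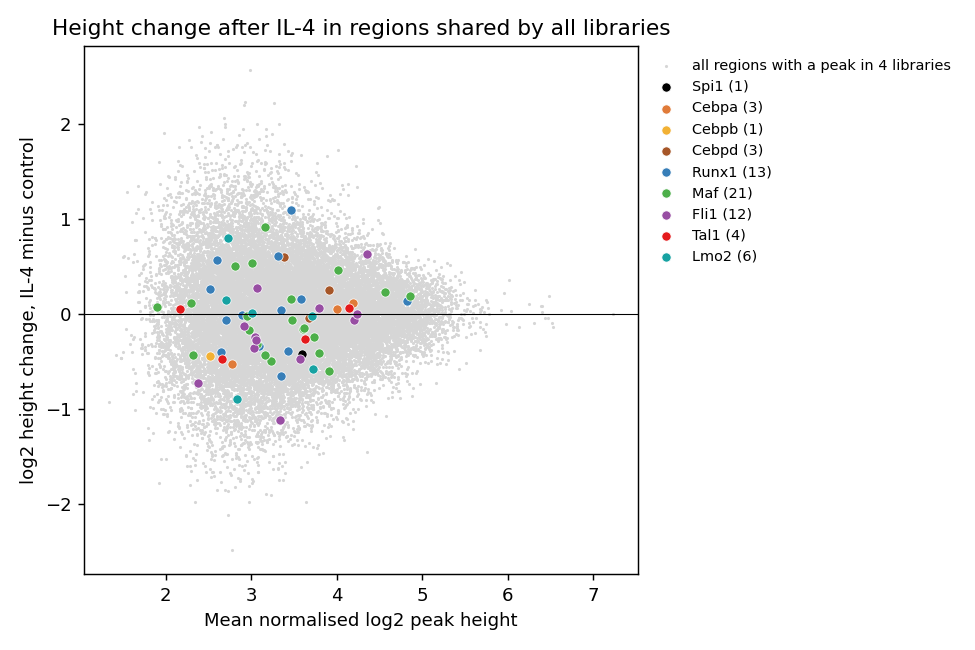
Log2 height change, IL-4 minus control (y axis), against the mean normalised log2 height (x axis) for all 25442 regions with a peak in 4 libraries (grey) and the 64 regions of the 9 genes (colours, number per gene in the key). The 64 regions lay within the grey cloud, from −1.12 at Fli1 +1.10 kb to 1.10 at Runx1 +38.9 kb, and none passed the adjusted threshold.

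The number of peaks in these regions was 111 and 102 in control and 103 and 92 in IL-4, a difference of −9.00 (exact permutation test, two-sided, p = 0.6667, with 0.3333 the smallest p that 2 against 2 libraries allow). Per 1000 peaks of each library there were 2.45 and 2.44 in control and 2.45 and 2.33 in IL-4. IL-4 replicate 2, which had the lowest heights over the whole genome, was the library without a peak in 11 of the 22 regions that had a peak in 3 libraries. Without that library the difference in peak number was −3.50, and again no region of the 9 genes passed after adjustment. Regions seen in a single library were spread over all 4, with 13 and 14 in control and 10 and 10 in IL-4. Their median heights, 3.03 to 4.95, were below those of the shared regions, 8.03 to 12.7.

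The motif content of the 149 regions was counted beside that of all regions, on both strands. C/EBP matches stood in 26 regions (17.4%, against 12.1% of all regions), PU.1 matches in 18 (12.1% against 9.87%), AP-1 matches in 36 (24.2% against 21.8%), RUNX matches in 13 (8.72% against 8.04%) and STAT6 matches in 9 (6.04% against 7.22%). In windows of 200 bp around each highest peak, which have equal length, the shares were 15.4% against 10.7% for C/EBP, 13.4% against 9.31% for PU.1, 23.5% against 20.7% for AP-1, 6.71% against 7.36% for RUNX and 4.70% against 6.31% for STAT6. Those differences were not tested. The PU.1 matches were at Maf (8 regions), Fli1 (5), Runx1 (2), Cebpa, Cebpd and Tal1 (1 each), and none was in the 5 regions of Spi1. Both Cebpb regions lacked all 5 motifs. No motif was found in 68 of the 149 regions (45.6%, against 54.6% of all regions).

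The 9 regions with a STAT6 match were 4 at Runx1, 4 at Maf and 1 at Fli1. They did not share a direction. Runx1 +38.9 kb was higher in both IL-4 libraries, Runx1 +81.8 kb was found in both control libraries and neither IL-4 library, and Runx1 +76.4 kb overlapped between groups. Maf −35.9 kb (TTCAGCGGAA) had heights of 14.59 and 13.36 in control and 10.96 and 10.52 in IL-4. The groups overlapped there after normalisation (log2 change −0.15 ± 0.39, SE; limma adjusted p = 0.953). Maf +94.6 kb (TTCTTTTGAA) had 12.70 and 11.95 in control and 7.59 and 13.36 in IL-4. Maf +170 kb (TTCGGAAGAA) had 3.79 in control replicate 1, no peak in control replicate 2 and 8.91 and 5.51 in IL-4. The others were seen in fewer libraries. Fli1 +25.3 kb (TTCCCAGGAA) had a peak in replicate 1 of each group, Runx1 −206 kb (TTCCAGTGAA) in IL-4 replicate 1 and Maf +314 kb (TTCCATTGAA) in IL-4 replicate 2.

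Relatives and partners of the 9 factors and myeloid genes that PU.1 and C/EBP proteins regulate were described by the same counts. The 17 partners, such as Runx2, Runx3 and the LMO2-binding adaptor Ldb1, held 85 regions, of which 20 (23.5%) were shared by all libraries, beside 43.0% for the 9 factors. None of the 20 passed after adjustment, and the median log2 change was 0.02. At an unadjusted limma p under 0.05, 0 of the 20 were higher and 1 was lower, beside 4.12% and 4.15% of all shared regions. Partner regions found in 1 group numbered 2 in IL-4 (2.35%) and 7 in control (8.24%), beside 2.53% and 4.33% of all regions, and 3 of the 7 were at Runx3. Of the 20 shared partner regions, 4 had both IL-4 heights above both control heights and 4 below (20% each), beside 19.2% and 18.6% of all shared regions. Gata1, the erythroid factor, had no region. The 20 target genes held 149 regions, 64 of them shared, and again none passed after adjustment, with a median log2 change of 0.01. At an unadjusted limma p under 0.05, 3 of the 64 were higher and 4 lower, beside the same 4.12% and 4.15% of all shared regions. Target regions found in 1 group numbered 5 in IL-4 (3.36%) and 7 in control (4.70%), beside the same 2.53% and 4.33%. Both IL-4 heights lay above both control heights in 8 of the 64 (12.5%) and below in 15 (23.4%), beside 19.2% and 18.6% of all shared regions. Of the 5 regions in IL-4, 2 were at Arg1 and 1 each at Csf3r, Tlr4 and Ctsb. The 7 in control were 1 each at Csf1r, Itgam, Itgb2, Tlr4, Lyz2, Ctsb and Mrc1.

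The mean centred height profile of each gene over the 4 libraries was compared with those of 1040 genes that had 5 or more shared regions (1039 for Runx1, which is left out of its own comparison). The nearest profiles by Euclidean distance were those of Tekt3 (0.100), Taok3 (0.122) and Tril (0.134) for Spi1, of Ppp1r1c (0.0790), Msn (0.123) and Ppt1 (0.129) for Cebpa, and of Nxt1 (0.0539), 2210417A02Rik (0.0629) and Ndrg1 (0.0646) for Runx1. The median distance was 0.525, 0.528 and 0.370. The profile of Spi1 rests on 1 region and that of Cebpa on 3, over 4 libraries, so likeness describes these libraries and nothing of shared control.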

How the data were processed

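ATAC-seq peak lists of 2 control and 2 IL-4 BMDM libraries were analysed, grouped by their labels. According to the methods and the submitters' processing notes, the authors aligned reads to mm10 with BWA 0.7.10, called peaks in each library with MACS2 2.0.10, removed blacklisted regions and annotated peaks with HOMER 4.2. SAMtools 0.1.19 is also listed. The deposited Peak Score was read as −log10 of the q-value from its values (lowest 1.30 to 1.32), since no label states the unit. The stated cut-off of q would be a score of 2, and 133 to 603 peaks a library fell below it. Handling of duplicates and the Tn5 shift is not given in the sources used here. The files hold no reads, so depth is unknown and DiffBind was not run.

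Autosomal and sex chromosome peaks were merged at 1 bp overlap (bedtools 2.31.1 gave the same 60710 regions), and each region took the highest height per library. Gene symbols were updated by Entrez identifier to RefSeq, which matched 168301 of 168587 peaks. Log2 heights of shared regions were quantile-normalised, and the groups were compared by limma (version 3.58.1, R 4.3.3; trend, two-sided, Benjamini-Hochberg over 25442 regions, threshold 0.05, no replicate block). The fit and motif search were tested on simulated data. The height changes simulated for the fit were larger than any seen in the members, so whether it finds changes of their size was not tested. Named regions were the tallest promoter and tallest other region of each gene, the 10 with the lowest p, those found in 1 group, and those with a STAT6 match. Any other region named was chosen after its values were seen. The members and lists were chosen with earlier results of these data known. From the list of partner genes, 1 gene is not reported here. The other alternatives were stricter peak lists, merging within 500 bp, other normalisations, no variance trend, a replicate block and leaving out each library. Intervals for counting error were not given, because no counts are at hand.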

Additional observations from a re-analysis of the deposited data

How the results depend on the processing

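No region of the 9 genes passed the adjusted limma threshold in any of the 12 fits or with the listed spelling alone, an alternative chosen after seeing the data. The number at an unadjusted p under 0.05 was 3, and 1 to 3 when a library was left out, the 1 without IL-4 replicate 1. The 3 IL-4-only regions became 0 with peaks above the pooled median height and 1 with peaks within 500 bp merged, because 2 of them then joined a neighbour. Leaving out a library, which loosens the definition, gave 4 to 13 IL-4-only and 8 to 19 control-only regions (2.92% to 9.35% and 5.76% to 13.8%, beside 4.59% to 10.2% and 7.72% to 14.9% of all regions), and 18 to 23 regions higher and 22 to 25 lower without overlap (26.1% to 33.8% and 33.3% to 36.2%, beside 34.3% to 35.1% and 33.7% to 34.6% of all shared regions). Without normalisation, 3 were higher and 17 lower (4.69% and 26.6%, beside 8.83% and 29.3%), and the median log2 change of the 64 regions was −0.26. The log2 change of Lmo2 −169 bp ranged from −0.03 (without control replicate 2) to 1.61 when a library was left out. After quantile normalisation, region heights in samples of the same replicate number did not deviate together (r = 0.00677 across regions). That check cannot show a shift of a whole library, which the normalisation removes. In both groups replicate 1 had more peaks than replicate 2 (45250 and 41885 in control, 41978 and 39462 in IL-4). Its median height was also greater (8.04 and 7.46 in control, 7.69 and 6.41 in IL-4). With the replicate block, 0 regions passed and 3 had an unadjusted p under 0.05, so no call changed. The difference in peak number stayed below 0 in each alternative run (−3.5 to −16.5). The unknown sequencing depth limits every statement on height.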
